A study of Homo sapiens with 4 samples.

Results

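CXCL1, CXCL2, CXCL3, CXCL5, CXCL6 and CXCL8 encode the CXC chemokines that draw neutrophils, and they are described here in BEAS-2B, an established human cell line from bronchial epithelium, which was wild type in all libraries. The genes were chosen by symbol and were 6 of the 24424 symbols in the deposited counts, and all 6 were among the 13072 genes that averaged 16 or more normalized counts. The Control cells were untreated, and the LPS cells received LPS (bacterial lipopolysaccharide) for 2 hr. WT PDZ+LPS cells were given the WT PDZ peptide for 24 hr and then LPS for 2 hr, and mut PDZ+LPS cells were given the mut PDZ peptide on the same schedule. The WT PDZ peptide is based on the first PDZ domain of the tight junction protein ZO-1, with a TAT sequence for entry into cells and a FITC label, and the mut PDZ peptide carries alanines in place of a pair of glycines. The LPS cells received no control peptide, and no library with peptide but without LPS was analysed here. Each condition was 1 library of poly(A)-selected RNA, so no difference has a replicate check, no p-value is given, and the 95% intervals are exact Clopper-Pearson intervals for counting error between 2 libraries. The libraries had no molecular identifiers, so reads need not be independent molecules, and these intervals and the limits given for counts of 0 cover counting error only.

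Chemokines of this group carry the motif Glu-Leu-Arg before their first cysteines. They bind CXCR2 on neutrophils, and CXCL6 and CXCL8 also bind CXCR1. Airway epithelial cells release them within hours of contact with bacterial products, they are held on syndecans and other heparan sulfate proteoglycans, and the gradient that results guides neutrophils across the epithelium. Their genes lie side by side on chromosome 4, are switched on by NF-kB, and give short-lived mRNAs with AU-rich 3′ ends.

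The stretches just before the 6 genes are shown because the genes moved together with LPS and share a motif there. Each runs 5′ to 3′ on the strand of its gene, from 150 bases before the RefSeq transcript start to 10 bases after it (build GRCh38.p14), with matches to GGNNNTTCC (the kB motif bound by NF-kB), TGANTCA (AP-1) and TATAAA, searched on both strands, in capitals.
CXCL1, chr4:73869243-73869402, plus strand: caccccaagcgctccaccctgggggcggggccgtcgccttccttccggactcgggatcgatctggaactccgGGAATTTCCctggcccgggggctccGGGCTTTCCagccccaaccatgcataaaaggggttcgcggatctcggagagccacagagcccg
CXCL2, chr4:74099186-74099345, minus strand: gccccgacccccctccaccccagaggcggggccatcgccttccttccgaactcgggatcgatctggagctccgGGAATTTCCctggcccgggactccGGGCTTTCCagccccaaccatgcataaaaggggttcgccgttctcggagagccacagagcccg
CXCL3, chr4:74038680-74038839, minus strand: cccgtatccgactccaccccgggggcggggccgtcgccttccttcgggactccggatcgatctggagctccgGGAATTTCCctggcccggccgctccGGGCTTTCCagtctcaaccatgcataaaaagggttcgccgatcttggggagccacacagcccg
CXCL5, chr4:73998668-73998827, minus strand: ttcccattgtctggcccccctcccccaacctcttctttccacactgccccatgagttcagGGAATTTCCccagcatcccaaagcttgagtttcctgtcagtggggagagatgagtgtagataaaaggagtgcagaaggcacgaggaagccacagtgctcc
CXCL6, chr4:73836528-73836687, plus strand: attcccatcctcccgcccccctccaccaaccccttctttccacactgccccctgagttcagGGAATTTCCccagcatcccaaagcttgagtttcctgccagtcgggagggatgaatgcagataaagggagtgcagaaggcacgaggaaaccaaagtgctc
CXCL8, chr4:73740419-73740578, plus strand: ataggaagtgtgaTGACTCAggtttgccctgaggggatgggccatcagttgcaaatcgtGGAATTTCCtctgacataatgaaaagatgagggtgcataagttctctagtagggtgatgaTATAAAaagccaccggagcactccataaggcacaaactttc
Every one of the 6 held GGAATTTCC, which began 77 or 78 bases before the start in CXCL1, CXCL2 and CXCL3, and 89 to 91 bases before it in CXCL5, CXCL6 and CXCL8. CXCL1, CXCL2 and CXCL3 held GGGCTTTCC as well, 53 bases before the start. Among 35116 RefSeq promoters, each 300 bases long, 20.1% held GGNNNTTCC and 0.461% held the exact letters GGAATTTCC, a string picked after the 6 promoters had been read. TGANTCA and TATAAA were found in CXCL8 alone of the 6, against 7.71% and 11.5% of all promoters. The matches are matches of letters, and no binding was measured.

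The 6 genes made up 4415 counts in Control, 101051 with LPS alone, 87749 after WT PDZ+LPS and 100889 after mut PDZ+LPS. As shares of all counts in these libraries, which summed to between 19682929 and 25155647, these are 0.0178% (95% interval 0.0173 to 0.0183), 0.402% (0.399 to 0.404), 0.374% (0.372 to 0.377) and 0.513% (0.509 to 0.516). The 6 chemokines thus rose as a sum in all 3 libraries with LPS, least with the WT PDZ peptide and most with the mut PDZ peptide. In bulk RNA, more cells that express a gene and more RNA per cell cannot be told apart.

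CXCL1 and CXCL8 carried most of these counts. CXCL1, first known as melanoma growth stimulating activity, had 1917 normalized counts in Control, 40741 with LPS alone, 38548 after WT PDZ+LPS and 48403 after mut PDZ+LPS. CXCL8, the interleukin-8 of human airways, had 1307 in Control, 37516 with LPS alone, 34700 after WT PDZ+LPS and 47644 after mut PDZ+LPS. Both stood far above Control in each library with LPS, with the mut PDZ+LPS library highest and the WT PDZ+LPS library lowest of the 3. Ranked by raw count, CXCL1 moved from place 2861 in Control to place 26 in LPS, and CXCL8 from place 4179 to place 34.

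CXCL2 and CXCL3, close relatives of CXCL1, were lower. CXCL2 had 342.0 normalized counts in Control, 5267 with LPS alone, 4614 after WT PDZ+LPS and 7062 after mut PDZ+LPS. CXCL3 had 88.8 in Control, 5087 with LPS alone, 5065 after WT PDZ+LPS and 8151 after mut PDZ+LPS. The LPS and WT PDZ+LPS libraries were nearly level for CXCL3, and the mut PDZ+LPS library was highest for both genes.

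CXCL5 and CXCL6 are the other close pair, and CXCL5 is also known as an epithelial neutrophil-activating peptide. CXCL5 had 78.3 normalized counts in Control, 4196 with LPS alone, 3861 after WT PDZ+LPS and 4843 after mut PDZ+LPS. CXCL6 had 108.8 in Control, 2249 with LPS alone, 1820 after WT PDZ+LPS and 2442 after mut PDZ+LPS. For these 2 genes too Control was lowest, WT PDZ+LPS came next, then LPS, and mut PDZ+LPS was highest.

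**Figure D1:**
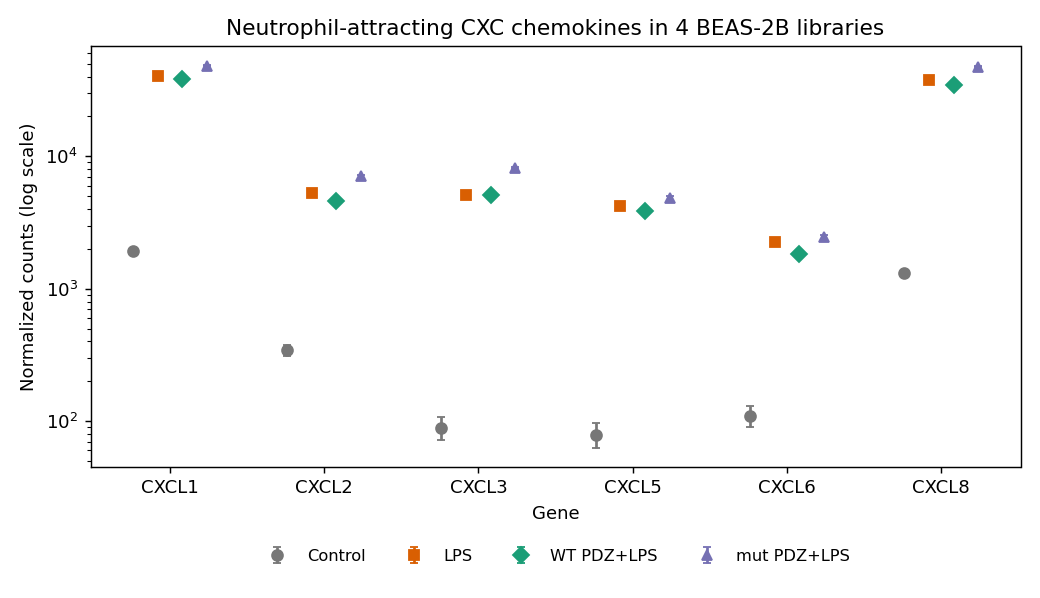
Normalized counts (log scale) of the 6 chemokine genes in the Control library, the LPS library and the libraries of WT PDZ+LPS and mut PDZ+LPS, 1 point per library, with bars for the exact 95% Poisson counting interval, which is smaller than most points. All 3 libraries with LPS lie far above Control for every gene, and mut PDZ+LPS lies highest for every gene.

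The first comparison, LPS against Control, asks how the chemokine genes respond to the bacterial product. All 6 rose, by 15.4-fold to 56.7-fold, and all 6 passed the call rule, a difference of at least 2-fold with at least 16 normalized counts in at least 1 of the 2 libraries. Over all genes, 3.46% passed that rule as higher (460 of 13277). On the log2 scale, with 1 added to each normalized count, CXCL3 rose by 5.83 (95% interval 5.56 to 6.14) and CXCL5 by 5.73 (5.44 to 6.06), and these 2 intervals overlap. CXCL8 rose by 4.84 (4.77 to 4.92), CXCL1 by 4.41 (4.35 to 4.47), CXCL6 by 4.36 (4.11 to 4.64) and CXCL2 by 3.94 (3.80 to 4.10). The intervals of CXCL1 and CXCL6 overlap, and that of CXCL2 lies below the other 5. The median of the 6 was 4.62, against -0.00103 over the 13072 genes. Ordered by fold change, the 6 took places 18 (CXCL3), 19 (CXCL5), 30 (CXCL8), 36 (CXCL1), 38 (CXCL6) and 44 (CXCL2) among these genes. The steepest rises belonged to CXCL3 and CXCL5, the pair with the fewest normalized counts in Control.

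The unequal rises changed the makeup of the group. CXCL1 gave 49.9% of the counts of the 6 genes in Control (48.4 to 51.4) and 42.9% in LPS (42.6 to 43.2). CXCL8 went the other way, from 34.0% (32.6 to 35.4) to 39.5% (39.2 to 39.8). CXCL3 went from 2.31% to 5.35% and CXCL5 from 2.04% to 4.42%, while CXCL2 went from 8.90% to 5.54%. Per kilobase of the longest transcript the directions were the same, with CXCL1 going from 58.8% to 52.2%, CXCL8 from 25.8% to 30.9%, CXCL5 from 1.04% to 2.32% and CXCL2 from 9.45% to 6.08%. With either peptide the makeup stayed near that of LPS, with CXCL1 at 43.5% and 40.8%, CXCL8 at 39.2% and 40.2%, and CXCL3 at 5.72% and 6.88% after WT PDZ+LPS and mut PDZ+LPS. Together CXCL1 and CXCL8 gave more of the counts than the other 4 genes in every library.

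**Figure D2:**
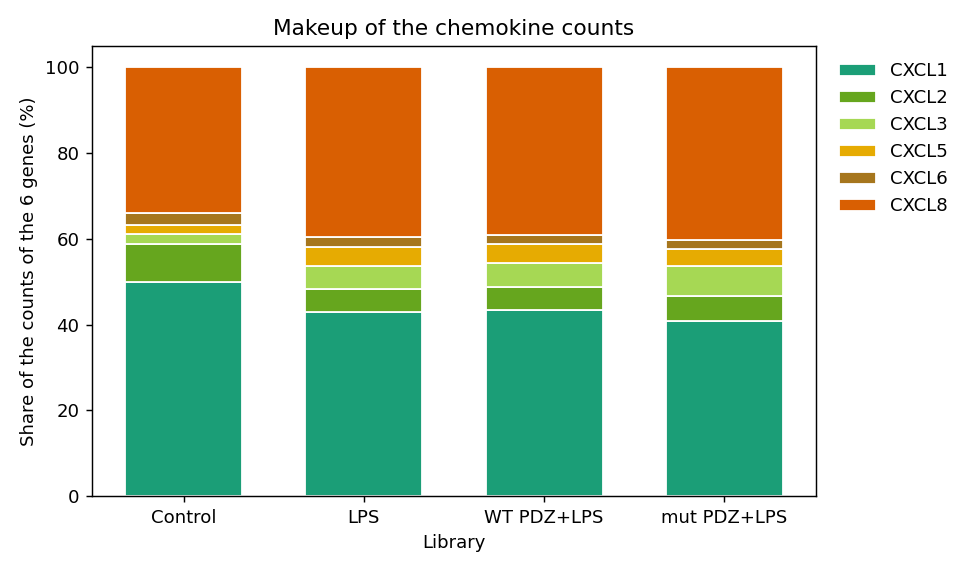
Share of the summed counts of the 6 chemokine genes (%) taken by each gene in each library, 1 stacked bar per library, each adding up to all counts of the 6 genes. CXCL1 falls from 49.9% in Control to 42.9% in LPS, and CXCL3 and CXCL5 grow from 2.31% and 2.04% to 5.35% and 4.42%.

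Levels can be compared between the genes per kilobase, first with the length of the longest coding transcript in GENCODE 29, 1075 (CXCL3) to 2538 (CXCL5) bases. In Control the order was CXCL1 at 1748 normalized counts per kilobase, CXCL8 at 767, CXCL2 at 281, CXCL3 at 82.6, CXCL6 at 63.3 and CXCL5 at 30.9. CXCL3 and CXCL6 could not be separated at this depth, with a ratio of 1.30 (0.994 to 1.71). In LPS the order was CXCL1 at 37138, CXCL8 at 22004, CXCL3 at 4732, CXCL2 at 4324, CXCL5 at 1653 and CXCL6 at 1309. CXCL3 stood above CXCL2 in LPS by a ratio of 1.09 (1.05 to 1.14), and CXCL5 above CXCL6 by 1.26 (1.20 to 1.33). The same order held in both peptide libraries. CXCL6 and CXCL8 have 2 coding transcripts each, and with their median lengths of 1137.5 and 1202.5 bases the order of CXCL5 and CXCL6 turned. CXCL6 then stood above CXCL5 in every library, by 1.20 (1.14 to 1.26) in LPS and 1.05 (0.994 to 1.11) in WT PDZ+LPS, where the interval holds 1. The order of CXCL3 and CXCL6 in Control turned as well, again within counting error. CXCL2 and CXCL3 have 1 coding transcript each, so this choice could not change their order. By raw counts in LPS CXCL2 stood above CXCL3, with 5599 against 5408, so their order there rests on the annotated lengths. Within LPS, CXCL1 stood 1.69 times above CXCL8 per kilobase of the longest transcript (1.66 to 1.71) and 1.19 times above it with the median length (1.17 to 1.21).

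The second comparison, WT PDZ+LPS against LPS, gives the response with the peptide from ZO-1, where peptide and library cannot be told apart with 1 library each. Relative to the LPS library, CXCL6 was at -19.1%, CXCL2 at -12.4%, CXCL5 at -7.98%, CXCL8 at -7.51% and CXCL1 at -5.38%, each lower by more than counting error. CXCL3 was at -0.435%, and its interval on the log2 scale, -0.062 to 0.049, holds 0. None of the 6 passed the 2-fold rule, and over all genes 1.37% did (181 of 13236). The log2 fold changes were -0.31 for CXCL6 (-0.39 to -0.22), -0.19 for CXCL2 (-0.25 to -0.13), -0.12 for CXCL5 (-0.18 to -0.057), -0.11 for CXCL8 (-0.13 to -0.092) and -0.080 for CXCL1 (-0.10 to -0.060). The median of the 6 was -0.12, where 52.7% of all genes were above 0 and their median was 0.0075. Against Control, the WT PDZ+LPS library was still 13.5-fold (CXCL2) to 56.4-fold (CXCL3) higher.

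The third comparison, mut PDZ+LPS against LPS, gives the response with the altered peptide. All 6 were higher than in the LPS library by more than counting error, CXCL3 by 60.2%, CXCL2 by 34.1%, CXCL8 by 27.0%, CXCL1 by 18.8%, CXCL5 by 15.4% and CXCL6 by 8.55%. None passed the 2-fold rule, which 3.95% of all genes did (528 of 13378). At 1.5-fold CXCL3 passed, as did 7.89% of all genes as higher. The log2 fold changes ran from 0.12 for CXCL6 (0.033 to 0.20) to 0.68 for CXCL3 (0.63 to 0.73), with a median of 0.30. The comparisons of WT PDZ+LPS and of mut PDZ+LPS with LPS share the LPS library. Against Control, the mut PDZ+LPS library was 20.6-fold (CXCL2) to 90.8-fold (CXCL3) higher.

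The mut PDZ+LPS library was tilted by transcript length, and the chemokine transcripts ran from 1075 (CXCL3) to 2538 (CXCL5) bases. Over the 12094 of 13072 genes with a length, Spearman's rho of the mut PDZ+LPS/LPS log2 fold change with transcript length was -0.605 across genes, which are not independent, and the tenth of genes with the shortest transcripts had a median of 0.40 and the longest a median of -0.47. In WT PDZ+LPS/LPS rho was 0.0756. After the trends over the length and GC content of the longest coding transcript were removed, the mut PDZ+LPS/LPS values were 0.42 for CXCL3 (0.37 to 0.47), 0.20 for CXCL2 (0.15 to 0.25), 0.20 for CXCL5 (0.14 to 0.26) and 0.13 for CXCL8 (0.11 to 0.15). CXCL1, at -0.0049 (-0.024 to 0.015), and CXCL6, at -0.0016 (-0.087 to 0.084), then could not be separated from LPS at this depth. These values turn on which transcript length is used. With the median length of a gene's coding transcripts, which followed the tilt less closely (rho -0.373), the same step gave 0.24 for CXCL1, 0.42 for CXCL2, 0.68 for CXCL3, 0.40 for CXCL5, 0.15 for CXCL6 and 0.32 for CXCL8. The trend taken off CXCL1 was 0.25 with the longest and 0.0068 with the median length, and that taken off CXCL5 was 0.010 and -0.20. Values given below with the trends removed use the longest transcript unless the median length is named. In WT PDZ+LPS/LPS the same correction left all 6 below 0, from -0.32 for CXCL6 to -0.0075 for CXCL3. The interval of CXCL3, -0.063 to 0.048, holds 0.

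**Figure D3:**
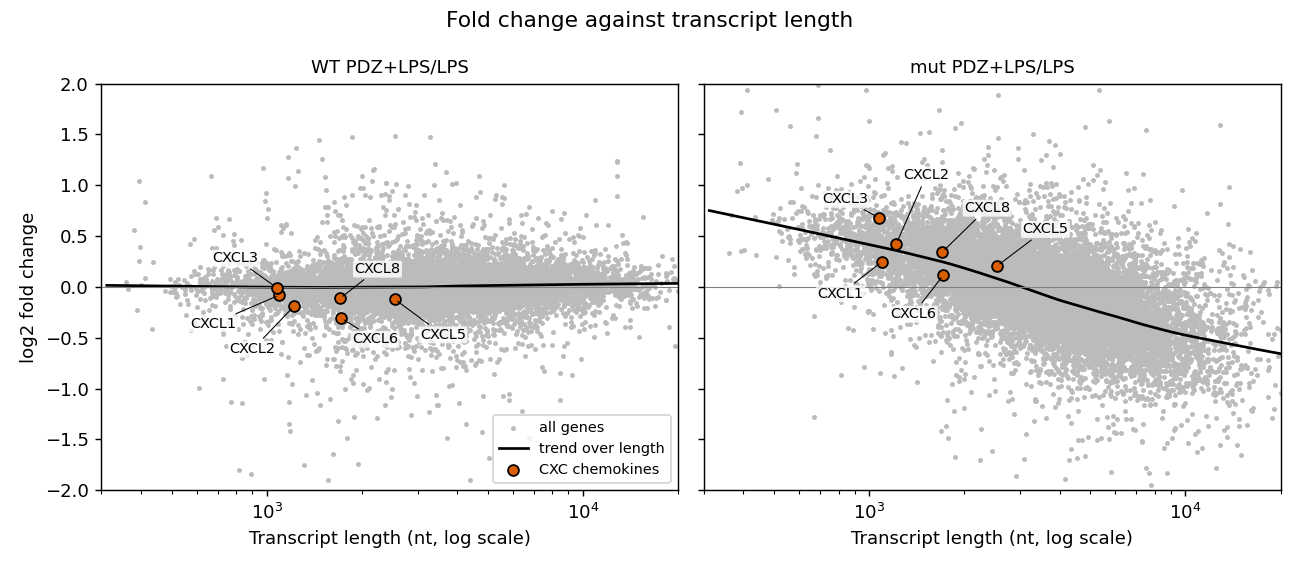
Log2 fold change of WT PDZ+LPS/LPS (left) and mut PDZ+LPS/LPS (right) against transcript length (bases, log scale) for 12094 genes (grey), with the lowess trend (black line) and the 6 chemokine genes (orange); 28 genes on the left and 42 on the right lie outside the axes. The trend is near 0 at every length on the left and falls with length on the right. Of the 6 genes, CXCL1, CXCL2 and CXCL3 have the shortest transcripts and CXCL5 has the longest.

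The peptides differ by the exchange of glycines for alanines, and mut PDZ+LPS was compared with WT PDZ+LPS directly, at the same 24 hr of peptide and 2 hr of LPS, as the single pair of peptides. All 6 genes were higher with the mut PDZ peptide, by 25.4% (CXCL5) to 60.9% (CXCL3), and none passed the 2-fold rule, which 4.26% of all genes did (570 of 13372). At 1.5-fold CXCL2 and CXCL3 passed, as did 8.4% of all genes as higher. The log2 fold changes were 0.69 for CXCL3 (0.63 to 0.74), 0.61 for CXCL2 (0.56 to 0.67), 0.46 for CXCL8 (0.44 to 0.48), 0.42 for CXCL6 (0.33 to 0.52), 0.33 for CXCL1 (0.31 to 0.35) and 0.33 for CXCL5 (0.26 to 0.39). With the trends over length and GC content removed they were 0.41, 0.37, 0.27, 0.31, 0.057 and 0.34 in the same order. All 6 remained above 0 after this step, CXCL1 by the least, with an interval of 0.037 to 0.077. With the median transcript length they ran from 0.31 (CXCL1) to 0.67 (CXCL3). The part of the libraries themselves in these differences, as opposed to the peptides, cannot be told apart with 1 library each.

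**Figure D4:**
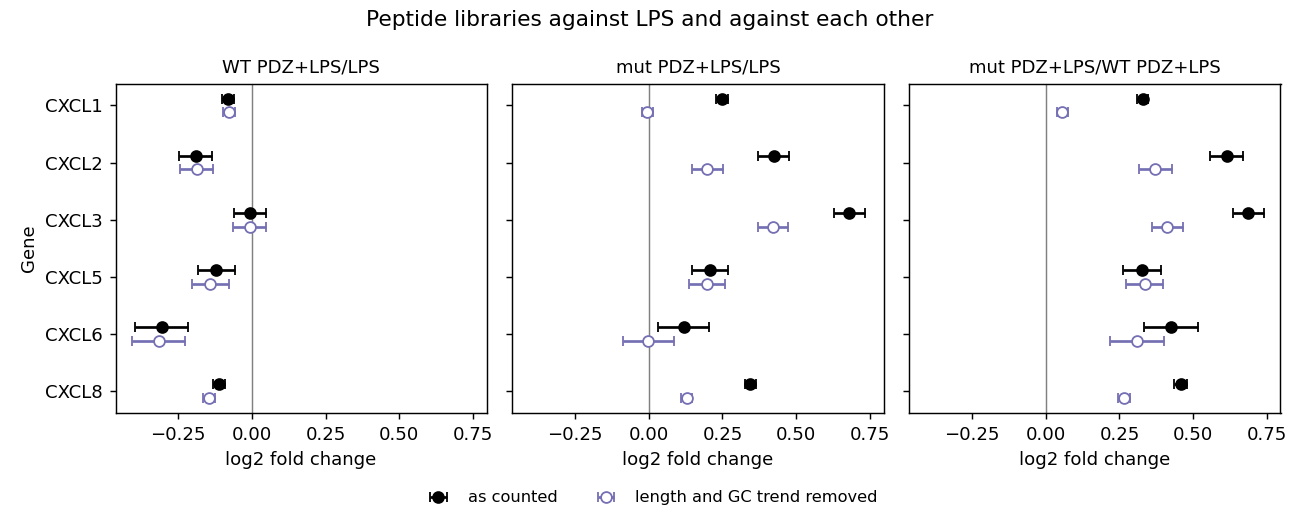
Log2 fold changes of the 6 chemokine genes for each peptide library against LPS (left and middle) and for mut PDZ+LPS against WT PDZ+LPS (right), as counted (black) and with the trends over the length and GC content of the longest transcript removed (open circles), with bars for the 95% counting interval. CXCL1 and CXCL6 move from 0.25 and 0.12 to near 0 in mut PDZ+LPS/LPS when the trends are removed, while CXCL5 stays near 0.20; with the median transcript length, not plotted, the 3 are at 0.24, 0.15 and 0.40.

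Reads of close relatives could be assigned to the wrong gene. The coding sequences of CXCL1, CXCL2 and CXCL3 were 90.7% to 94.4% identical to each other and those of CXCL5 and CXCL6 87.4%, while all other pairs lay between 57.9% and 67.6%. Over whole transcripts, none of the 100-base windows of the 6 genes, the length of 1 read, was found exactly in another gene. Within 2 mismatches of another of the 6 genes were 9.52% of the windows of CXCL1, 11.0% of CXCL2 and 2.87% of CXCL3, and none of CXCL5, CXCL6 or CXCL8. Summed over CXCL1, CXCL2 and CXCL3, a value that an exchange of reads among them cannot move, the log2 value was 4.44 for LPS against Control, -0.083 for WT PDZ+LPS against LPS, 0.32 for mut PDZ+LPS against LPS and 0.40 between the peptides. These values are as counted, with no trend removed. CXCL1 gave 40741 of the 51095 summed normalized counts in LPS. The sum therefore follows CXCL1 and cannot show whether CXCL2 or CXCL3 gained reads from it.

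The 6 genes lie among 10 other protein-coding genes in the stretch of chromosome 4 from RASSF6 to PARM1. In RefSeq order, RASSF6 is followed by CXCL8, CXCL6, PF4V1, CXCL1, PF4, PPBP, CXCL5, CXCL3, CXCL2, MTHFD2L and then the growth factor genes EPGN, EREG, AREG and BTC. The platelet chemokine genes PF4, PF4V1 and PPBP, which stand between the 6, had 0 to 15 counts in any library. PF4V1 reached 16 normalized counts in mut PDZ+LPS alone, where it was at 0.60 against Control (-0.53 to 1.83) and at 0.84 against LPS (-0.34 to 2.22), so no difference was detectable at this depth. MTHFD2L, next to CXCL2, was at 131 counts in Control and 96 in LPS, a log2 fold change of -0.33 (-0.73 to 0.055). EREG, a ligand of the EGF receptor, rose by 2.19 (2.14 to 2.23), from 4633 to 19521 counts, AREG by 1.31 (0.88 to 1.79), EPGN by 1.02 (0.18 to 2.01) and RASSF6 by 1.34 (0.33 to 2.66). Each of the 6 chemokine genes rose by more than any of these neighbours. In mut PDZ+LPS/LPS EREG fell by 0.71 as counted and by 0.51 after the trends were removed, where the 6 chemokine genes were at or above 0 within counting error.

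**Figure D5:**
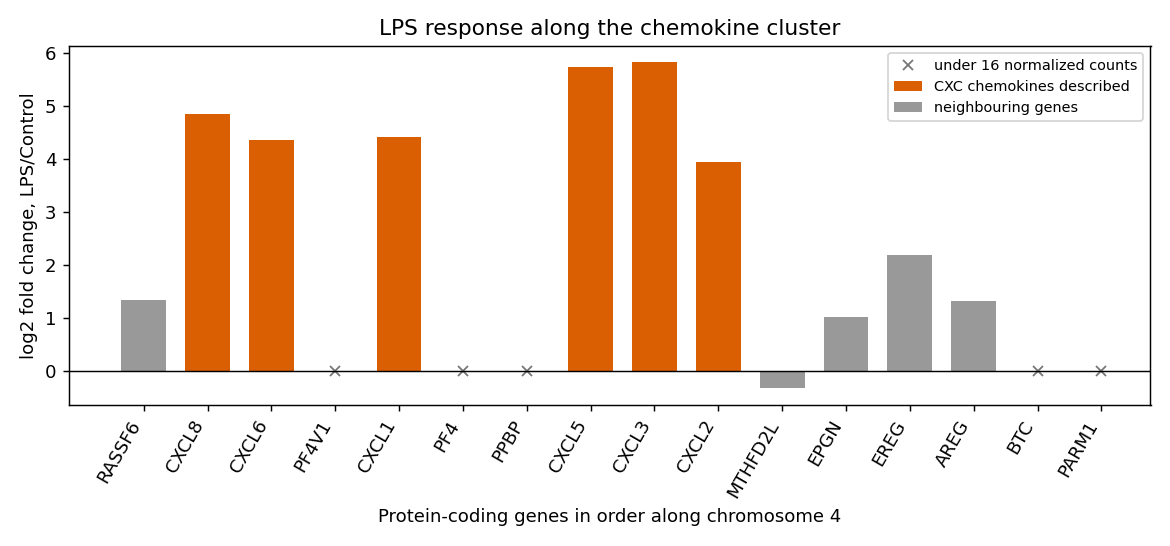
Log2 fold change of LPS/Control for 16 protein-coding genes in RefSeq order along chromosome 4 (spacing not to scale), with the 6 chemokine genes in orange, their neighbours in grey and crosses for genes under 16 normalized counts in both libraries. The 6 chemokine genes rose by 3.94 to 5.83, and the highest neighbour, EREG, rose by 2.19.

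Of 11 other CXC chemokine genes, 1 of the 2 that could be tested passed the rule in LPS/Control, where 3.46% of all genes passed as higher. This was CXCL10, which had 2.61 normalized counts in Control and 36.7 in LPS. It could be tested through the LPS library alone, so it could only pass as higher. CXCL10, which attracts T cells through CXCR3, had 3 counts in Control, 39 with LPS alone, 16 after WT PDZ+LPS and 23 after mut PDZ+LPS. It rose by 3.38 in LPS/Control (2.16 to 6.15) and was lower in WT PDZ+LPS/LPS, at -1.13 (-2.12 to -0.31), past the 2-fold rule. CXCL16, a ligand that is anchored in the membrane, was the most abundant, with 735, 874, 732 and 679 counts in Control, with LPS, after WT PDZ+LPS and after mut PDZ+LPS. The other 9 had at most 15 counts in any library. Thus 101051 counts of the 6 neutrophil-attracting genes stood beside 39 of CXCL10 and 874 of CXCL16 in the LPS library.

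The receptors of the 6 chemokines were at or near 0. CXCR1 had 0 counts in all 4 libraries, which allows a share of up to 1.19e-05% to 1.52e-05% of the counts, and CXCR2 had 0, 1, 1 and 2 counts in Control, with LPS, after WT PDZ+LPS and after mut PDZ+LPS. Of 8 receptor genes, 2 could be tested, and neither passed the rule in LPS/Control. CXCR4, the receptor of CXCL12, had 79, 40, 23 and 28 counts in the same order. The most abundant was ACKR1, which binds many chemokines without signalling, with 1321, 1120, 1019 and 934 counts, which cannot be told apart from reads of the antisense gene CADM3-AS1 that overlaps it, since the counting's use of strand is not given in the sources used here. Genes that signal below the receptors (G proteins, kinases, arrestins and others) were present, 10 of 11 with 16 normalized counts in a library, and 0 of 10 passed the rule in LPS/Control. The most abundant of these, GNAI2, a subunit of the inhibitory G protein, was at 7277 counts in Control and 6310 in LPS.

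Of the 6 proteoglycan genes on whose products the chemokines can be held, SDC4 alone passed the rule in LPS/Control. SDC4, the gene of syndecan-4, had 7553 counts in Control, 106747 with LPS alone, 81692 after WT PDZ+LPS and 69400 after mut PDZ+LPS. It rose by 3.93 (3.90 to 3.97) with LPS, near the rise of CXCL2, and was lower than in LPS in both peptide libraries, at -0.28 (-0.30 to -0.27) with the WT PDZ peptide and -0.30 (-0.31 to -0.29) with the mut PDZ peptide. SDC4 and the 6 chemokine genes thus lay on the same side of LPS with the WT PDZ peptide and on opposite sides with the mut PDZ peptide as counted. The median of the 6 proteoglycan genes in LPS/Control was 0.12.

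Of 13 genes for transcription factors and their regulators that act on chemokine promoters, 8 passed the rule in LPS/Control, all as higher. NFKBIZ, a nuclear partner of NF-kB, rose by 4.25 (4.08 to 4.44), NFKBIA, its cytoplasmic inhibitor, by 2.98 (2.91 to 3.05), NFKB1, the p50 subunit, by 2.75 (2.69 to 2.82) and CEBPD, a C/EBP factor, by 2.12 (2.05 to 2.19). JUN (1.46) and FOSL1 (1.29) of AP-1, ATF3 (1.33) and BCL3 (1.33) also rose, while RELA (0.60), CEBPB (0.57), JUNB (0.27), FOS (-0.26) and EGR1 (-0.95) did not pass. The median of the 13 was 1.33, and that of the 6 chemokine genes was 4.62. Against LPS, 0 of the 13 passed with either peptide. NFKB1 and NFKBIA lay on opposite sides of LPS with the mut PDZ peptide, at -0.79 (-0.83 to -0.74) and 0.35 (0.32 to 0.39), and at -0.61 and 0.13 after the trends over length and GC content were removed.

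The 3′ ends of the 6 chemokine mRNAs held the AU-rich pentamer AUUUA 5 times in CXCL1, 10 in CXCL2, 7 in CXCL3, 11 in CXCL5, 6 in CXCL6 and 9 in CXCL8. Over 18104 genes the median was 2, and 28.7% of genes held 5 or more. The 6 held 5.36 (CXCL6) to 13.9 (CXCL2) per kilobase, where the median of all these genes was 1.5 per kilobase and 7.76% of genes reached 5.36. Of 7 genes for proteins that act on such mRNAs, 2 rose past the rule in LPS/Control. ZC3H12A, the endonuclease regnase-1, which degrades inflammatory mRNAs, rose by 4.07 (3.98 to 4.17), from 888 to 13853 counts, and ZFP36L1, which brings AU-rich mRNAs to decay, rose by 1.22 (1.14 to 1.30). ZFP36, the gene of tristetraprolin, was at 1010 counts in Control and 767 in LPS, a log2 fold change of -0.28. mRNA decay itself was not measured.

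Of 9 genes for LPS recognition and signalling, 7 could be tested and 0 passed the rule in LPS/Control. TLR4, the LPS receptor, had 1818 counts in Control, 1705 with LPS alone, 1664 after WT PDZ+LPS and 999 after mut PDZ+LPS, and CD14, which hands LPS to it, had 507, 415, 362 and 445. LY96, the gene of MD-2, which binds LPS on TLR4, had 1 count in Control and 0 in each library with LPS. The most abundant was the kinase gene IRAK1, with 11247 counts in Control and 10525 in LPS. In mut PDZ+LPS/LPS TLR4 was at -0.45 as counted (-0.56 to -0.34) and at 0.11 after the trends were removed.

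Other genes for cytokines, growth factors and adhesion molecules, not all of them particular to neutrophils, rose with the chemokines. Of 10 such genes, 8 could be tested and 8 passed as higher in LPS/Control, where 3.46% of all genes did. The median of the 8 was 5.94. CSF2, IL1A, IL1B and VCAM1 could be tested through the LPS library alone, so once testable they could only pass as higher. Their values are also the highest of the 8 and raise this median. The list was chosen with earlier results of these data known. CSF3, the gene of the growth factor G-CSF, rose by 5.43 (5.28 to 5.60), IL6 by 4.84 (4.70 to 4.99), LIF by 4.05 (3.94 to 4.17) and ICAM1, the adhesion molecule that neutrophils grip, by 3.60 (3.55 to 3.65). CSF2, IL1A, IL1B and VCAM1 rose from 1 to 7 counts in Control to 172 to 1145 in LPS. Their log2 fold changes were 7.11 (5.72 to 13.5) for CSF2 and 7.25 (6.42 to 8.78) for IL1A. Those of IL1B and VCAM1 were 7.27 (6.18 to 10.02) and 6.44 (5.04 to 12.9). The added 1 lowers these 4 values at such low Control counts, and the intervals leave it out. As counted, in WT PDZ+LPS/LPS the 8 had a median of -0.26 and the 6 chemokine genes one of -0.12, and in mut PDZ+LPS/LPS these medians were 0.23 and 0.30. With the trends removed, the 8 ran from -0.29 (ICAM1) to 0.38 (IL6) in mut PDZ+LPS/LPS. The median of the 6 chemokine genes there was then 0.16, or 0.36 with the median transcript length. No gene of the 8 passed the 2-fold rule as counted in either comparison with LPS. IL1B came nearest with the WT PDZ peptide, at -0.71 (-0.91 to -0.51).

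The genes most like the 6 were sought over the 4 libraries by the distance between profiles of log2 values centred on their mean, among 13066 other genes. Nearest to the median profile of the 6 were IL6 (distance 0.306), ELF3 (0.340), which encodes an epithelial transcription factor, PI3 (0.349), which encodes the elastase inhibitor elafin, TRIM15 (0.352) and BDKRB1 (0.477), the bradykinin B1 receptor gene. TRIM15 had 0 counts in Control. For single genes, IL6 was nearest to CXCL8 (0.165), LIF to CXCL2 (0.149), ZC3H12A to CXCL6 (0.210), G0S2 to CXCL3 (0.226), the read-through symbol TMEM256-PLSCR3 to CXCL5 (0.247) and TNFAIP3 to CXCL1 (0.344). Among themselves, CXCL1 and CXCL6 were the closest pair (0.218) and CXCL2 and CXCL3 the farthest apart (1.77), although the latter have the most alike coding sequences of all pairs. The distance rests mostly on the step from Control to LPS.

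The cell line label was checked against markers. All 10 epithelial markers had at least 16 normalized counts in a library, and their sum ran from 85216 to 108600 normalized counts across the 4 libraries. Most of this sum came from keratins, with KRT7 at 42059, KRT8 at 16563 and KRT18 at 14774 in Control. Others were low there, with EPCAM at 44.4, KRT19 at 188.0 and CDH1 at 551.8. Of 8 neutrophil markers, 3 (CSF3R, S100A8 and S100A9) reached 16, with a summed level of 1264 in Control and 1273 to 1532 in the libraries with LPS, and MPO and FCGR3B were at 0 in all 4. Of 7 macrophage and leukocyte markers, CD68 alone reached 16, their sum was 313 to 376, and PTPRC (CD45) and CD163 were at 0 in all 4. Of 6 fibroblast markers, COL1A1 alone reached 16, their sum was 300 in Control and 432 to 447 with LPS, and COL3A1 and LUM were at 0. In mut PDZ+LPS, where the 6 chemokine genes were highest, CSF3R had 223 counts, S100A8 110, S100A9 969 and CD68 304. Against LPS, the log2 fold change as counted was 0.31 for CSF3R (0.040 to 0.59) and 0.77 for S100A8 (0.35 to 1.21). It was 0.13 for S100A9 (0.00035 to 0.25) and 0.089 for CD68 (-0.14 to 0.31). With the trends removed the values were 0.21, 0.27, -0.43 and -0.11 in the same order. The part of these marker levels in the chemokine results was not tested.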

How the data were processed

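RNA from 4 BEAS-2B libraries, 1 per condition, was sequenced. Libraries were made with a directional kit. The authors trimmed and mapped reads (TopHat, hg19, per the labels) and deposited raw counts per gene symbol. The counting tool, its annotation, its use of strand and its handling of reads with several matches are not given in the sources used here. The study's methods name FPKM, whereas the deposited counts are whole, with unequal totals.

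Counts were divided by geometric size factors (1.15, 1.06, 0.990 and 0.851 for Control, LPS, the WT PDZ library and the mut PDZ library), and 1 was added before log2. The intervals were computed from raw counts and size factors without the added 1, which moves values toward 0 where counts are low. The call rule needed 2-fold and 16 normalized counts. Genes were named if they were among the 6 or had the nearest profiles. List genes were named if they passed this rule in LPS/Control or were the most abundant of a list. NFKB1, EREG, TLR4, CXCR1, CXCR2, CXCR4, MTHFD2L, LY96, CD14, ZFP36 and the list genes given as not passed were added after their values were seen. Of these, NFKB1 and EREG passed the rule in LPS/Control, so for them the later choice is of their mut PDZ+LPS/LPS values. The members and lists were chosen with earlier results of these data known. Trends over length and GC content of the longest coding transcript (GENCODE 29) were removed by lowess (span 0.3) in turn for 10 rounds; 11751 genes matched by symbol and 343 by an older RefSeq symbol. Promoters came from RefSeq, and all 6 genes matched. Alternatives were TMM (edgeR 4.0.16), total count, upper quartile, a pseudocount of 5, other thresholds and other trend removals. The calls, intervals and trend removal were run on simulated counts that varied by counting error alone, with changes larger than the peptide differences of the 6 genes. Such counts cannot show how the steps behave with variation between libraries, with small differences or with the choice of transcript length. Python 3.11.15, scipy 1.17.1 and statsmodels 0.14.6 were used.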

Additional observations from a re-analysis of the deposited data

Results flagged for a closer look

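For 5 of the 6 genes the WT PDZ+LPS and mut PDZ+LPS libraries lay on opposite sides of the LPS library, each by more than counting error. With the mut PDZ peptide relative to the WT PDZ peptide, the log2 fold change was 0.33 for CXCL1, 0.61 for CXCL2, 0.33 for CXCL5, 0.42 for CXCL6 and 0.46 for CXCL8. This difference was not tested, since each condition was 1 library. With the trends over the length and GC content of the longest transcript removed, 3 of these 5, CXCL2, CXCL5 and CXCL8, still lay above LPS with the mut PDZ peptide beyond counting error. With the median transcript length all 5 lay above LPS, at 0.24 for CXCL1, 0.42 for CXCL2, 0.40 for CXCL5, 0.15 for CXCL6 and 0.32 for CXCL8.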

How the results depend on the processing

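All 6 genes passed in LPS/Control under every alternative threshold, scaling and trend removal, and none passed at 2-fold or 3-fold when a peptide library was compared with LPS or with the other peptide library. At 1.5-fold, 1 gene (CXCL3) passed in mut PDZ+LPS/LPS and 2 (CXCL2 and CXCL3) in mut PDZ+LPS/WT PDZ+LPS. The median of the 6 in LPS/Control was 4.49 with total counts, which shifted all genes by -0.13. In mut PDZ+LPS/LPS it was 0.33 with total counts, 0.36 with the upper quartile, 0.11 with 1 pass of the trend removal, 0.16 with the trends removed in turn and 0.36 when this used the median transcript length of each gene. In mut PDZ+LPS/WT PDZ+LPS it was 0.51 with the upper quartile, 0.28 with 1 pass, 0.32 in turn and 0.51 with the median length. Removing the trends in turn was chosen after seeing that 1 pass left a rho of 0.0929 with length, and the median length, also added later, followed mut PDZ+LPS/LPS less closely (rho -0.373). CXCL1 and CXCL6 were below 0 in mut PDZ+LPS/LPS with the longest transcript (-0.052 and -0.050 in 1 pass) and above 0 with the median length (0.24 and 0.15). All 6 were below 0 in WT PDZ+LPS/LPS, and all 6 above 0 between the mut PDZ and WT PDZ peptides, under every scaling and trend removal. In WT PDZ+LPS/LPS CXCL3 was near 0 throughout, from -0.015 with TMM to -0.0026 with 1 pass, and its interval as counted holds 0. Between the peptides CXCL1 was at 0.0059 with 1 pass. The signs of these values are not settled. With genes of at least 64 normalized counts, 4 of the 5 genes nearest to the median profile were the same. Shares of the 6 per kilobase moved most, as a ratio, for CXCL5, to 1.04% in Control and 2.32% in LPS. No paired analysis was possible because each condition had 1 library.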
